A study of Sus scrofa with 70 samples.

Results

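A microexon is an exon so short that the spliceosome has little room to recognise both of its ends at the same time. Many microexons keep the reading frame and add or remove a few amino acids on the surface of a protein, and most of what is known about them comes from neurons, where the splicing factors SRRM3 and SRRM4 promote their inclusion. Skipped microexons of at most 27 nt, that is of at most 9 codons, are described here in 5 glands of the boar. A microexon was counted where the deposited transcript annotation held an internal exon of that length in a transcript, and another transcript of the same gene joined the same flanking splice sites directly by an intron. This gave 850 microexons in 701 genes, 3.12% of the 27251 skipped exons found by the same rule, and the other 26401 were longer than 27 nt. The 850 stood at 845 distinct positions, since an exon annotated under several gene identifiers was counted under each.

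The animals were boars of 12 months from 2 breeds, the Banna mini-pig inbred line (BMI) and the Diannan small-ear pig (DSE) from which that line was derived by inbreeding. From each breed and with no treatment given, 3 accessory glands (bulbourethral, prostate and vesicular) were sampled beside the epididymis and the testis. Each breed and gland had 3 short-read RNA-seq libraries, 30 in all, and 1 long-read Iso-seq library, 10 in all. The labels do not say that the 3 libraries of a gland came from 3 animals, so the p-values measure the spread between these libraries.

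Most listed gland markers were present in the glands they name, but MUC2 was at 0.0 TPM at the median in bulbourethral gland and AMH at 0.99 TPM in testis, and the prostate marker ACP3 was higher in epididymis than in prostate gland. Summed germ cell markers reached 22494 to 98697 TPM in testis and at most 901.2 TPM elsewhere. Summed epithelial markers (EPCAM, KRT8, KRT18 and CDH1) reached 9.97 to 38.7 TPM in testis and 558.0 to 2056 TPM in the other glands, so every comparison of testis with the other glands also compares tissue with very little epithelial RNA to tissue with much of it. Some libraries stood apart. The vesicular gland markers PSP-I and AWN were summed at 221586 TPM at the highest in prostate gland, in the BMI prostate gland 2 library. Skeletal muscle RNA, by ACTA1, CKM and TNNT3 together, was found in BMI epididymis 1, BMI bulbourethral gland 1 and DSE bulbourethral gland 3. CKM was also at 98.6 TPM in DSE epididymis 2 and 28.3 TPM in DSE epididymis 3, where ACTA1 was at 0.0 TPM and TNNT3 at most 0.326 TPM. The BMI epididymis 2 library held far more LCN8 and RNASE10, and DSE epididymis 1 far less CRISP1, than the other epididymis libraries. DSE epididymis 1 also had the lowest transcript integrity of the 30 libraries in the quality control of the study, and its median PSI over skipped exons longer than 27 nt was 61.22%, against 70.63 to 72.1% in the other epididymis libraries. Germ cell markers were lowest in DSE testis 2, at 22494 TPM against 64185 TPM or more in the other testis libraries. In such bulk samples, fewer cells of a type and less RNA per cell cannot be told apart.

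The lengths of the microexons fell on multiples of 3. There were 55 of 3 nt, 26 of 6 nt, 42 of 9 nt, 80 of 12 nt, 70 of 15 nt, 95 of 18 nt, 108 of 21 nt, 101 of 24 nt and 115 of 27 nt. Between these peaks, a length held 2 to 27 microexons. In all, 692 of 850 lengths were multiples of 3, or 81.4% with a 95% Wilson interval of 78.7 to 83.9%, whereas 49.9% of the longer skipped exons and 57.9% of those of 28 to 60 nt were. The limit of 27 nt cut no gap, since 27 skipped exons measured 28 nt, 25 measured 29 nt and 108 measured 30 nt. With a limit of 15 nt the share was 83.7%, and with a limit of 30 nt it was 79.2%.

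**Figure D1:**
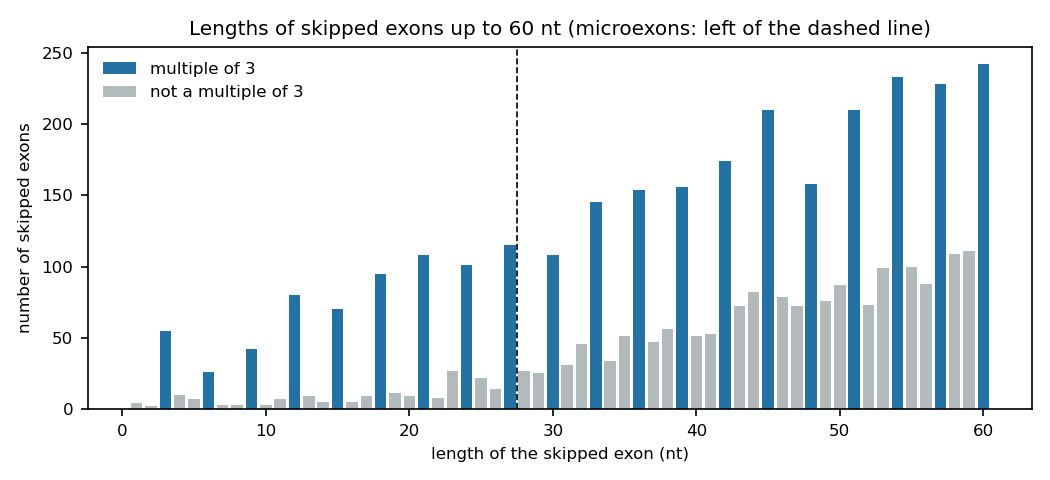
Number of skipped exons (vertical axis) at each exon length in nt (horizontal axis), for lengths up to 60 nt, with blue bars for multiples of 3, grey bars for other lengths and a dashed line after 27 nt. To the left of the line, the tallest bars stand at 12, 15, 18, 21, 24 and 27 nt with 80, 70, 95, 108, 101 and 115 exons.

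Multiples of 3 were more frequent inside coding sequence than outside it. Of the 850 microexons, 86.7% lay inside the predicted coding sequence of an inclusion transcript, against 57.9% of the longer skipped exons. Inside coding sequence 642 of 737 microexons (87.1%) were multiples of 3, and outside it 50 of 113 (44.2%, 95% interval 35.4 to 53.4%). Among longer skipped exons these shares were 62.9% and 31.9%. Coding sequence was that given for the inclusion transcripts themselves, so an exon that shifts the frame can itself come to lie outside it. These shares are thus not independent of exon length. The share also differed by the source of the transcript, at 86.5% of 624 microexons with an Ensembl inclusion transcript and 67.3% of 226 seen in Iso-seq transcripts alone.

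Splice sites could be read in the reference genome for 829 microexons on chromosomes. Of these, 784 (94.6%, 95% interval 92.8 to 95.9%) lay between AG and GT or GC, against 97.8% of the longer exons. Of the 6 microexons of 1 or 2 nt, 0 had such sites. Of the 55 exons of 3 nt, 45 had them and 28 ended in AG. A G stood at the last position of 76.7% of microexons. Pyrimidines, which form the tract that precedes an acceptor site, made up a median of 67.5% of the 40 nt before microexons and 62.5% before longer skipped exons. The letters TGC, part of the UGC element that SRRM4 is known to bind in front of neural microexons, were searched on the transcribed strand in the 30 nt before the exon, and 49.2% of microexons and 39.8% of longer skipped exons held them. A match of these letters is a description and not a binding site.

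Sequences of the microexons that carry the gland differences are shown with the 30 nt before and the 10 nt after them, from the Sscrofa11.1 RefSeq genome, the same build as the annotation. Capitals mark the exon. The first group holds 5 exons with a higher inclusion in testis.
SH3GLB1, 24 nt, chr4:129372610-129372633, minus strand: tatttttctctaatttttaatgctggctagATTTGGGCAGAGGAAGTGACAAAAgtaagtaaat
CLASP1, 27 nt, chr15:29961978-29962004, plus strand: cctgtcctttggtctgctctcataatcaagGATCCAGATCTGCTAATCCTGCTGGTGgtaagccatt
CADM1, 12 nt, chr9:42661597-42661608, minus strand: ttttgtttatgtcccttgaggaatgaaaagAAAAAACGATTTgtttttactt
AP1B1, 9 nt, chr14:46471318-46471326, minus strand: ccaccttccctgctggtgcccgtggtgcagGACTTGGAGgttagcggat
CLIP1, 6 nt, chr14:30463744-30463749, plus strand: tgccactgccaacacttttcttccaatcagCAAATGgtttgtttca

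The second group holds exons that were lower in testis, of which MINK1 and POLR3F were also lower in epididymis than in the accessory glands.
PICALM, 24 nt, chr9:19856285-19856308, minus strand: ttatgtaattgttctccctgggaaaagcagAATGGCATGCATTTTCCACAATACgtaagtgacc
MINK1, 24 nt, chr12:52020654-52020677, minus strand: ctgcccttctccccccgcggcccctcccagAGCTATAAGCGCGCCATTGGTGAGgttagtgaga
POLR3F, 21 nt, chr17:26728176-26728196, plus strand: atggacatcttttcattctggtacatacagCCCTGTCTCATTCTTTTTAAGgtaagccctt

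Related genes held related microexons, and both members of a pair of spectraplakins and a pair of microtubule plus-end proteins were lower in testis.
MACF1, 18 nt, chr6:95301709-95301726, plus strand: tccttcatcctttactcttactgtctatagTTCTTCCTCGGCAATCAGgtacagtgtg
DST, 18 nt, chr7:29288805-29288822, plus strand: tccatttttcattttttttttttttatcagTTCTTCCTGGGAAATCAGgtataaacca
CLASP1, 3 nt, chr15:29985904-29985906, plus strand: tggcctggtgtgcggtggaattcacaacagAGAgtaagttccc
CLASP2, 3 nt, chr13:19357987-19357989, minus strand: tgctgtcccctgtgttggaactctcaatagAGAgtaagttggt
Counted from 1 at the 5′ end of the exon, the MACF1 exon differs from the DST exon by C9G and C12A, and 16 of 18 bases match. The CLASP1 and CLASP2 exons of 3 nt are identical.

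Among exons of at least 12 nt with the same length, 33 pairs in different genes and at different positions matched in at least 75% of their bases, and these pairs held 47 genes. Most joined paralogues. They included the teneurins TENM3 and TENM4 (20 of 21 bases), the receptor phosphatases PTPRD and PTPRS (11 of 12 bases in 2 exons), the ankyrins ANK3 and ANK2 (21 of 24 bases), the casein kinases CSNK1G1 and CSNK1G3 (19 of 24 bases), the kinases MINK1 and TNIK (18 of 24 bases), and the translation factors EIF4G1 and EIF4G3 (16 of 21 bases). In the 4 calcium channel beta subunits CACNB1 to CACNB4, exons of 20 nt matched one another in 15 to 17 bases. Short pairs such as USO1 and SLIT2 (9 of 12 bases) joined genes of no known relation.

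Inclusion was measured as percent spliced in (PSI), the summed TPM of the transcripts with the exon divided by that of the transcripts with and without it. TPM, a transcript level scaled to the same total in each library, was deposited by the authors and gives no read depth, so the depth behind a PSI is unknown and a summed TPM of at least 1 was required in every library compared. Most microexons were skipped in these glands. The median PSI of a library was 2.87 to 9.16% for microexons and 61.2 to 76.1% for longer skipped exons. In testis, 565 microexons had a summed TPM of at least 1 in all 6 libraries, and 52.4% of them had a mean PSI under 10, 32.2% between 10 and 90, and 15.4% above 90. In epididymis 53.4% of 504 lay under 10, in vesicular gland 55.9% of 431, in prostate gland 56.1% of 490 and in bulbourethral gland 56.2% of 482. Among longer skipped exons 29.0 to 31.3% lay under 10.

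Transcripts can be annotated without being quantified, and this touched many microexons. Of 150808 transcripts in the annotation 133722 had a TPM row, and the others were counted as 0. At least 1 transcript without a row stood on either side of 362 microexons, and for 78 microexons a whole side had none. Of the 357 microexons tested below in testis against the other glands, 165 had such a transcript. The part of these missing rows in the low PSI or in the gland differences was not tested.

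The long reads gave a second measure, a count of full-length reads per transcript, from 231413 to 458697 reads per library and with no replicates. All microexons together had 41098 full-length inclusion reads and 153247 skipping reads. At least 1 inclusion read was seen for 53.4% of microexons and for 84.8% of longer skipped exons, while 46.6% and 15.2% had none. Over the 508 microexons with at least 20 reads, read PSI and mean TPM PSI differed by a median of 2.565 points, and 86.6% lay within 20 points. For 21 microexons they differed by more than 50 points. Reads gave the lower PSI by more than 20 points for 15 of 135 exons of 3 to 12 nt and the higher PSI for 9 of them, against 25 and 19 of 370 exons of 13 to 27 nt.

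**Figure D2:**
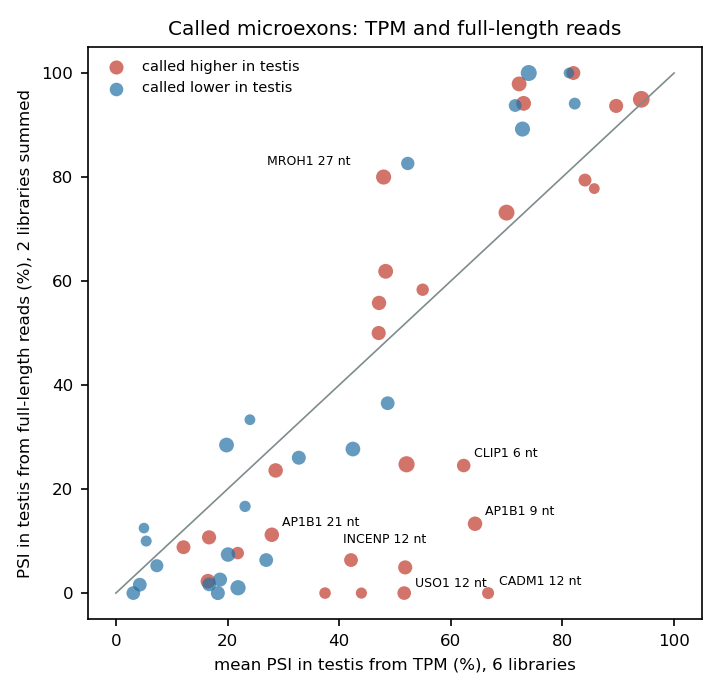
PSI from full-length reads in testis (vertical axis, percent) against mean PSI from TPM in testis (horizontal axis, percent) for the microexons called in testis that had at least 5 full-length reads there, from the 2 Iso-seq libraries summed. Red points were called higher and blue points lower in testis, larger points had more reads, and of 51 exons, 34 lay within 20 points of the diagonal, 11 below it and 6 above it by more.

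The first comparison set testis against the mean of the other 4 glands, with limma on PSI over all skipped exons. A microexon was called where the Benjamini-Hochberg adjusted p was under 0.05 and the difference at least 10 PSI points. Of 850 microexons, 357 could be tested, and 61 in 57 genes were called (17.1%), where 11.7% of all 12802 skipped exons tested were called. Higher in testis were 33 microexons (6.65% of all exons tested were called higher) and lower were 28 (5.01% of all exons tested). The median difference of tested microexons was -0.04 points, and 0.10 over all exons, and the median size was 2.07 points against 1.56. Of the 61, 57 were multiples of 3 (307 of the 357 tested were), 56 lay in coding sequence (328 of the 357 tested did), and 13 of the 357 were called with no overlap between testis and other libraries, as were 3.14% of all exons tested. TGC preceded 18 of the 33 called higher (54.5%), 13 of the 28 called lower (46.4%) and 49.3% of those tested.

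**Figure D3:**
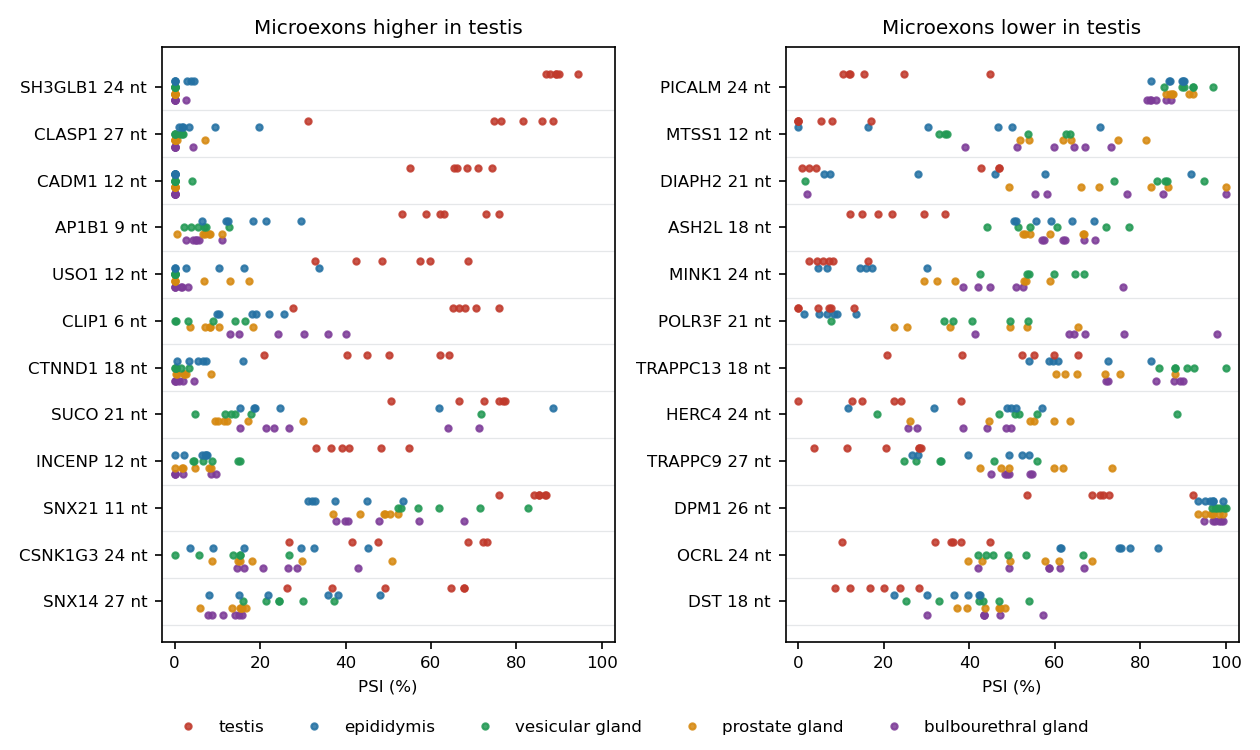
PSI in percent (horizontal axis) of the microexons named for testis, in 2 panels for higher and lower exons, with each point 1 library and the 5 glands by colour. SH3GLB1 stands at 87.0 to 94.5 in testis and at most 4.57 elsewhere, and PICALM at 10.4 to 44.7 in testis and at least 81.6 elsewhere.

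The exon with the largest difference was that of 24 nt in SH3GLB1 (ENSSSCG00000006930), which encodes endophilin B1, a protein that bends membranes. Its PSI in testis was 87.0 at the lowest, 89.3 at the median and 94.5 at the highest. In epididymis it was 0 to 4.57, in bulbourethral gland 0 to 2.63, and in all libraries of vesicular and prostate gland 0. Testis therefore overlapped no other gland, and the difference was 89.05 ± 0.72 points (SE, adjusted p = 8.91e-32). Of the full-length reads in testis 74 included and 5 skipped the exon, and in the other glands 1 included and 2 skipped it. The exon was annotated between more than 1 pair of flanking sites, and for the other pair, which had a lower summed TPM, the difference was 4.87 points.

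The 12 nt exon of CADM1, an immunoglobulin adhesion molecule known on spermatogenic cells, also had no overlap between testis and the other libraries. Its PSI was 55.0, 67.2 and 74.2 at the lowest, median and highest testis library, while the other 24 libraries were at 0 to 4.04. The difference was 66.52 ± 1.36 points (adjusted p = 2.24e-22). The long reads did not show it, with 0 inclusion and 19 skipping reads in testis and none of either kind in the other glands.

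AP1B1, the beta subunit of the clathrin adaptor AP-1 at the trans-Golgi network, held 2 called exons, both higher in testis. The 9 nt exon was included at 53.1, 62.6 and 76.0% (lowest, median, highest) in testis and at 0.53, 7.10 and 29.6% in the other glands, a difference of 55.41 ± 2.61 points (adjusted p = 7.52e-15). Its 29.6% was an epididymis library, and the accessory glands stayed at or under 12.7%. The 21 nt exon stood at 14.8 to 44.2% in testis and at most 3.63% elsewhere (27.26 ± 2.40 points). Full-length reads of the 9 nt exon were 14 included and 91 skipped in testis and 3 and 259 in the other glands, so reads and TPM gave the same direction at different levels.

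USO1, the Golgi tether p115, held exons that moved in opposite directions. Its 12 nt exon was at 32.9, 53.0 and 68.7% in testis and at 0 to 33.9% elsewhere, with a difference of 47.21 ± 3.95 points (adjusted p = 5.17e-10). No long read carried it, with 0 inclusion reads against 57 skipping reads in testis. Its 21 nt exon was lower in testis, at 6.74 to 29.0% against 2.13 to 52.2%, and fell by 19.75 ± 4.89 points (adjusted p = 0.00318).

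The sorting nexins SNX21 and SNX14, members of a family of endosomal proteins, were higher in testis. The 11 nt exon of SNX21 was at 76.0, 85.4 and 86.9% in testis and at 31.2 to 82.8% in the other glands (34.75 ± 4.11 points, adjusted p = 2.24e-07). It was the only exon among the 24 named here for testis that lay outside coding sequence. The 27 nt exon of SNX14 was at 26.4, 57.0 and 67.6% in testis and at 6.01 to 48.1% elsewhere (32.21 ± 5.08 points). Full-length reads gave 105 included and 319 skipped in testis and 42 and 731 in the other glands.

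CLASP1, which stabilises microtubule plus ends, held 3 called exons. Its 27 nt exon was at 31.2, 78.9 and 88.5% in testis, at 0.99 to 19.7% in epididymis and at most 7.20% in the accessory glands, so that testis overlapped no other gland (70.78 ± 4.61 points, adjusted p = 4.72e-12). The lowest testis value was that of DSE testis 2, the library with the fewest germ cell markers. Full-length reads gave 129 included and 8 skipped in testis and 2 and 54 elsewhere. The 24 nt exon was higher by 31.07 ± 5.21 points and the 3 nt exon lower by 17.17 ± 1.92 points, at 72.2 to 98.3% in testis and at least 93.8% elsewhere. CLIP1 encodes the plus-end protein CLIP-170, and its 6 nt exon was at 27.7, 67.2 and 76.0% in testis and at 0 to 40.01% elsewhere (47.17 ± 4.76 points, adjusted p = 1.5e-08), with 13 included and 40 skipped reads in testis and 2 and 188 elsewhere.

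The 18 nt exon of CTNND1, p120 catenin of adherens junctions, was at 20.9, 47.7 and 64.2% in testis and at 0 to 16.1% elsewhere. The groups did not overlap, and the difference was 44.23 ± 3.49 points (adjusted p = 1.73e-10). Reads gave 53 included and 42 skipped in testis against 5 and 648 in the other glands. The 12 nt exon of INCENP, a subunit of the chromosomal passenger complex in cell division, was at 33.0 to 54.9% in testis and at 0 to 15.3% elsewhere (36.71 ± 2.30 points, adjusted p = 2.27e-12).

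The remaining exons named as higher had overlapping groups. The 21 nt exon of SUCO was at 50.6 to 77.4% in testis and at 4.78 to 88.5% elsewhere (41.90 ± 9.74 points, adjusted p = 0.00179), and epididymis, vesicular gland and bulbourethral gland each held libraries both under 20% and above 70%. The same exon was also counted once under an annotated read-through gene. Its reads were 248 included and 91 skipped in testis and 207 and 1973 elsewhere. The 24 nt exon of the casein kinase CSNK1G3 was at 26.7 to 73.2% in testis and at 0 to 50.9% elsewhere (34.12 ± 6.66 points, adjusted p = 0.000279).

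Among the exons that were lower in testis, the clathrin assembly protein PICALM stood first. Its 24 nt exon was included at 82.6 to 90.3% in epididymis, 85.5 to 97.0% in vesicular gland, 86.0 to 92.4% in prostate gland and 81.6 to 87.3% in bulbourethral gland. In testis it was at 10.4% at the lowest, 13.6% at the median and 44.7% at the highest. The groups did not overlap, and PSI fell by 68.04 ± 2.90 points (adjusted p = 1.02e-15). Full-length reads gave 39 included and 98 skipped in testis and 276 included and 0 skipped in the other glands.

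The 12 nt exon of MTSS1, which links the membrane to actin, was at 0 to 17.0% in testis and at 0 to 81.2% elsewhere (fell by 46.55 ± 7.01 points, adjusted p = 9.25e-06). The 21 nt exon of the formin DIAPH2 fell by 38.32 ± 12.39 points (adjusted p = 0.0247), but single libraries spanned 1.56 to 100% outside testis, and without BMI replicate 1, 2 or 3 the adjusted p was 0.0559 to 0.155. Epithelial markers, which were low in testis, moved with these differences, and their part in them was not tested.

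TRAPPC13 and TRAPPC9 encode subunits of TRAPP complexes, which tether vesicles. The 18 nt exon of TRAPPC13 was at 20.8, 53.8 and 65.5% in testis and at 54.0 to 100% elsewhere (fell by 28.43 ± 4.98 points). The 27 nt exon of TRAPPC9 was at 3.64, 24.4 and 28.7% in testis and at 24.7 to 73.5% elsewhere (fell by 25.93 ± 4.03 points). OCRL encodes an inositol polyphosphate 5-phosphatase of the endocytic pathway, and its 24 nt exon was at 10.1, 35.9 and 44.8% in testis and at 39.7 to 84.1% elsewhere (fell by 25.19 ± 4.34 points).

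The 18 nt exon of ASH2L, a subunit of histone H3 lysine 4 methyltransferase complexes, was at 12.1, 20.2 and 34.2% in testis and at 44.1 to 77.4% elsewhere, with no overlap (fell by 37.97 ± 3.89 points, adjusted p = 1.99e-08). The long reads gave a far lower inclusion, with 2 included and 194 skipped reads in testis and 5 and 239 elsewhere. The ubiquitin ligase HERC4 fell by 27.16 ± 7.02 points at its 24 nt exon (adjusted p = 0.00465). The 26 nt exon of DPM1, the catalytic subunit of dolichol-phosphate mannose synthase, is not a multiple of 3, and it was at 53.5 to 92.3% in testis and at 93.5 to 100% elsewhere (fell by 25.76 ± 2.65 points, adjusted p = 2.13e-08).

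The spectraplakins DST and MACF1, giant linkers of actin and microtubules, fell together at the related exons shown above. The DST exon was at 8.58, 18.4 and 28.3% in testis and at 22.5 to 57.3% elsewhere (fell by 22.76 ± 3.67 points, adjusted p = 2.48e-05). The MACF1 exon was at 31.6, 41.3 and 45.0% in testis and at 24.4 to 80.5% elsewhere (fell by 16.82 ± 4.99 points, adjusted p = 0.014). Full-length reads outside testis were too few in both genes to compare, with 2 inclusion and 3 skipping reads for DST and 3 inclusion reads for MACF1. The 3 nt exon of CLASP2, with the same letters as that of CLASP1, was at 56.8, 75.4 and 86.2% in testis and at 73.4 to 100% elsewhere (fell by 17.09 ± 3.42 points, adjusted p = 0.000376).

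Another exon of 3 nt, chosen after its values were seen, lies in CYTH2, a guanine nucleotide exchange factor for ARF GTPases (chr6:53877706-53877708, plus strand).
CYTH2, 3 nt: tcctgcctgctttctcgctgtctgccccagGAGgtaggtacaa
The exon was included at 75.9, 82.6 and 86.5% in testis. The ranges elsewhere were 54.1 to 57.7% in epididymis, 50.9 to 56.2% in vesicular gland, 48.9 to 59.3% in prostate gland and 48.6 to 52.8% in bulbourethral gland. Testis overlapped none of them, and the difference was 28.09 ± 1.24 points (adjusted p = 1.87e-15). Full-length reads gave 69 included and 0 skipped in testis and 102 and 25 in the other glands.

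Long reads could be set beside 49 of the 61 called microexons, those with at least 5 reads in testis and 5 in the other glands. Of 26 called higher, read PSI was higher in testis for 21, lower for 3 and equal for 2. Of 23 called lower, it was lower for 20, higher for 1 and equal for 2. The median read difference was 14.23 points in the former and -14.87 points in the latter.

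A list of 76 genes known for microexons in other tissues, mostly brain, was set against these calls. Of the 76 genes 42 held a microexon here, with 81 microexons in all, of which 51 were tested, 6 were higher in testis, 6 were lower and 39 were not called, and the median difference was -0.11 points, where 6.65% of all exons tested were called higher and 5.01% lower, with a median of 0.10 points. Among cytoskeletal genes 3 of 17 were higher and 4 lower, among vesicle and endocytosis genes 1 of 7 was higher and 1 lower, and among adhesion and receptor genes 0 of 10 were higher and 1 lower. Kinases gave 1 higher of 9, and nuclear and translation genes 1 higher of 8. Beside SH3GLB1, CLASP1, PICALM, DST, MACF1 and CLASP2, the called ones were ABI1, a regulator of the WAVE actin complex (15 nt, 20.79 ± 3.58 points higher), PTK2, the focal adhesion kinase (21 nt, 11.85 ± 1.2 points higher), CPEB2, a cytoplasmic polyadenylation factor (24 nt, 12.87 ± 2.84 points higher), and PTPRF, a receptor phosphatase (27 nt, lower by 13.91 ± 2.75 points).

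Other microexons of the listed genes were not called. The 6 nt exon of AP2M1, the mu subunit of the endocytic adaptor AP-2, was at 88.2, 94.5 and 95.4% in testis and at 81.4 to 93.9% elsewhere. Its difference of 5.89 ± 1.14 points had an adjusted p of 0.000242 but was under 10 points. SPTAN1, alpha-II spectrin of the membrane skeleton, held 3 microexons with 3 levels. Its 24 nt exon was at 98.9% or more in all 30 libraries, its 18 nt exon at 49.6 to 86.0%, and its 15 nt exon at 9.26 to 54.1%. The 21 nt exon of EIF4G1 was at most 3.31% in any library, and no full-length read included it.

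The microexon with the highest summed TPM lay in FTL, the ferritin light chain (24 nt), and its PSI was at most 0.0123% in any library. The next were in EDDM13, an epididymal gene. Its 9 nt exon was at 8.39, 43.7 and 79.6% in epididymis by TPM, whereas all 724 full-length epididymal reads included it.

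The second comparison set epididymis against the mean of the 3 accessory glands. Of 367 microexons tested 19 were called (5.18%), 8 higher and 11 lower in epididymis, where 2.23% of 13011 skipped exons were called, 1.04% higher and 1.19% lower. Of the 19, 16 were multiples of 3 (312 of the 367 tested were), and epididymis and accessory libraries overlapped in all of them, while 0.3% of all exons tested were called without overlap. Smooth muscle markers moved with this comparison, summed at 816.4 to 13343 TPM in epididymis, 262.6 to 2614 TPM in vesicular gland, 92.3 to 2152 TPM in prostate gland and 23.7 to 260.1 TPM in bulbourethral gland. Germ cell markers moved too, summed at 1.19 to 901.2 TPM in epididymis, with a median of 76.87 TPM, and at most 6.50 TPM in the accessory glands. The part of these marker lists in the differences was not tested. Without DSE epididymis 1, the library of lowest transcript integrity, there were 15 calls, 9 higher and 6 lower (2.12% of all exons called), and the part of that library's RNA quality was not tested. Without BMI epididymis 2 there were 21 (2.39% of all exons), and without the 3 libraries with muscle RNA 19 (1.81%). Leaving out 1 replicate number of a breed gave 12 to 16 calls (1.71 to 1.9% of all exons), the lowest without DSE replicate 2 or 3, and without DSE replicate 1 there were 8 higher and 5 lower. A log ratio with a pseudocount of 1 called 31, where it called 4.17% of all exons.

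**Figure D4:**
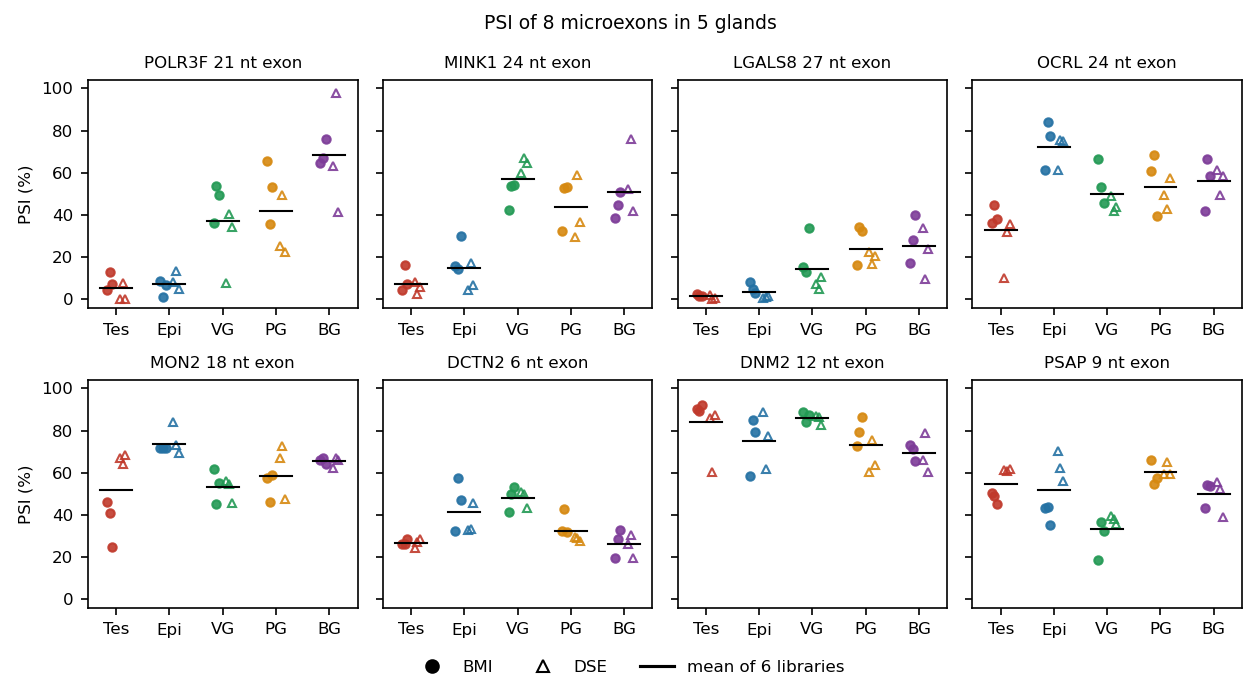
PSI in percent (vertical axis) of microexons in each of the 5 glands (horizontal axis), with each point 1 library, filled circles for BMI, open triangles for DSE and a line at the mean of 6 libraries. MINK1 and POLR3F are low in testis and epididymis and higher in the accessory glands, and PSAP is at 18.9 to 39.4 in vesicular gland and 54.6 to 66.2 in prostate gland.

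In MINK1, a kinase that acts on the cytoskeleton and JNK signalling, and in POLR3F, a subunit of RNA polymerase III, epididymis resembled testis in level. The 24 nt exon of MINK1 was at 2.49, 6.40 and 16.3% in testis, 4.66, 15.2 and 30.2% in epididymis, and 29.4, 52.7 and 75.9% in the accessory glands. It fell by 35.69 ± 5.27 points in epididymis (adjusted p = 0.000315), and in testis it fell by 34.28 ± 4.68 points against the other glands. Full-length reads included it 7 times of 71 in epididymis and 56 times of 110 in the accessory glands. The 21 nt exon of POLR3F was at 0 to 13.1% in testis, 1.25, 7.52 and 13.4% in epididymis, and 7.73 to 98% in the accessory glands (fell by 41.90 ± 6.77 points in epididymis, adjusted p = 0.000786).

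The exon of OCRL was lower in testis, as given above, and in epididymis it was at 61.2, 75.2 and 84.1%, against 39.7, 51.3 and 68.6% in the accessory glands (19.32 ± 4.40 points higher, adjusted p = 0.0129). The adjusted p rose to 0.0635 to 0.102 without BMI replicate 3 or without DSE replicate 2 or 3. Other exons higher in epididymis were the 18 nt exon of MON2, a protein of endosome to Golgi traffic, by 14.60 ± 3.13 points, the 25 nt exon of LRP11 by 14.07 ± 3.51 points, the 18 nt exon of SPTAN1 by 13.39 ± 2.99 points and the 9 nt exon of AP1B1 by 10.37 ± 2.25 points. Each overlapped the accessory glands. Leaving out 1 replicate number of a breed took the call from LRP11 in 4 of 6 cases (adjusted p of 0.0509 to 0.131 in those), from SPTAN1 in 3 (0.0546 to 0.0739) and from AP1B1 in 2 (0.0678 and 0.0762). The AP1B1 difference was 9.72 and 7.51 points in those 2 cases. Without the library DSE epididymis 1 it was 9.71 points, under the limit of 10 points, at an adjusted p of 0.0296.

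Of the 11 exons lower in epididymis, those of LGALS8, CXXC1 and TRAPPC13 are described beside the 2 above, and the others differed by 10.09 to 18.34 points in size. The 27 nt exon of LGALS8, galectin-8, was at 0.85, 2.41 and 8.29% in epididymis and at 5.04, 19.0 and 39.9% in the accessory glands (fell by 17.81 ± 3.56 points, adjusted p = 0.00463). It was also low in testis, at most 2.55%. Full-length reads did not show this difference, since they included the exon 2 times in epididymis and 47 times in the accessory glands and skipped it 0 times. The 27 nt exon of CXXC1, which binds unmethylated CpG, was at 68.5, 78.9 and 84.2% in epididymis and at 79.8, 92.4 and 100% in the accessory glands (fell by 15.45 ± 2.64 points). TRAPPC13 fell by 16.59 ± 3.99 points (adjusted p = 0.019), with an adjusted p of 0.0565 without BMI epididymis 2 and 0.0639 without DSE epididymis 1, and of 0.0595 to 0.126 without BMI replicate 2 or 3 or DSE replicate 1 or 3. Without BMI epididymis 2 its difference was -14.94 points, and without DSE epididymis 1 it was -14.92 points.

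The accessory glands were compared with one another. Between vesicular and prostate gland 1 of 365 microexons was called (0.274%, where 0.0231% of 12963 exons were called, all of them lower in vesicular gland), with 38 at an unadjusted p under 0.05 (10.4%, and 8.08% of all exons). The log ratio of inclusion to skipping TPM with a pseudocount of 1 called 14 instead, 10 higher and 4 lower in vesicular gland, where it called 1.96% of all exons. The exon called on the PSI scale lies in PSAP, which encodes prosaposin, the precursor of the lysosomal saposins (chr14:74742052-74742060, minus strand).
PSAP, 9 nt: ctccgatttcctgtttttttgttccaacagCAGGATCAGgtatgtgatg
It was at 18.9, 36.3 and 39.4% in vesicular gland and at 54.6, 59.6 and 66.2% in prostate gland, with no overlap (fell by 26.92 ± 3.25 points in vesicular gland, adjusted p = 0.0472). In testis it was at 45.1 to 62.0%, in epididymis at 35.5 to 70.5% and in bulbourethral gland at 39.1 to 55.5%. Full-length reads were few, with 6 included and 11 skipped in vesicular gland and 13 and 14 in prostate gland. The endothelial markers PECAM1 and CDH5 were summed at 11.65 to 27.94 TPM in vesicular gland and 40.3 to 98.53 TPM in prostate gland. Epithelial markers had medians of 743.2 and 1382 TPM in these glands. The part of either list in the PSAP difference was not tested. The call was lost without BMI replicate 3 or any DSE replicate, at an adjusted p of 0.131 to 0.179, and the difference was then 26.91 points or more in size. The BMI prostate gland 2 library, which held vesicular gland RNA, had the lowest prostate value, and without it the difference was -27.65 points and 3 microexons were called, with 0.241% of all exons.

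Between prostate and bulbourethral gland 0 of 409 microexons were called by limma, and 31 had an unadjusted p under 0.05 (7.58%, and 7.08% of all exons), where 0.0755% of 14574 exons were called. The log ratio with a pseudocount of 1 called 4, and 0.995% of all exons. Between vesicular and bulbourethral gland 5 of 366 were called (1.37%, all higher in vesicular gland), where 0.825% of 12962 exons were called, 0.586% higher and 0.239% lower. None of the 5 overlapped between these glands, and 0.725% of all exons tested were called without overlap. A log ratio made more calls, 8 higher and 2 lower with a pseudocount of 0.1 (1.6% of all exons called), and 12 higher and 7 lower with a pseudocount of 1 (3.96% of all exons).

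DCTN2 encodes dynamitin, a subunit of the dynein activator dynactin, and its 6 nt exon was at 41.4, 49.95 and 53.1% in vesicular gland and at 19.6, 27.6 and 33.0% in bulbourethral gland (21.65 ± 3.03 points, adjusted p = 0.0102). The 12 nt exon of MYO18A, an unconventional myosin, was at 78.9 to 94.7% and 53.3 to 74.3% (18.89 ± 3.51 points, adjusted p = 0.0381). The 12 nt exon of DNM2, the GTPase dynamin 2 (chr2:69551180-69551191, plus strand), was at 82.8, 86.9 and 88.9% and at 60.5, 68.6 and 78.7% (16.98 ± 2.81 points, adjusted p = 0.0216).
DNM2, 12 nt: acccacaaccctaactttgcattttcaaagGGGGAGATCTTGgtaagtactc
The DNM2 exon was well covered by long reads, with 27 included and 7 skipped in vesicular gland and 190 and 92 in bulbourethral gland. The 27 nt exon of the polarity kinase MARK2 was at 15.2 to 27.6% and 3.14 to 8.08% (15.04 ± 1.83 points, adjusted p = 0.00595). The last, in the unnamed gene ENSSSCG00000031636 (27 nt), differed by 14.41 ± 2.70 points (adjusted p = 0.0389). Smooth muscle markers were higher in vesicular than in bulbourethral gland, as given above. Epithelial markers were lower, at 558.0 to 954.5 TPM against 1500 to 2056 TPM, as were endothelial markers, at 11.65 to 27.94 TPM against 39.93 to 101.1 TPM. The part of these markers in the differences was not tested. Without the 3 libraries with muscle RNA 2 microexons and 0.484% of all exons were called, and MYO18A, DNM2 and ENSSSCG00000031636 had adjusted p of 0.0769, 0.0599 and 0.151. Their differences were then 18.16, 15.82 and 13.41 points. Leaving out 1 replicate number of a breed took the call from MYO18A in all 6 cases (0.0616 to 0.149), from DNM2 in 5, all but DSE replicate 2 (0.0548 to 0.11), from ENSSSCG00000031636 in 5, all but DSE replicate 1 (0.0888 to 0.159), and from DCTN2 without BMI replicate 2 or DSE replicate 1 (0.0577 and 0.0601), while MARK2 kept it in all 6.

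The breeds were compared within each gland. No microexon was called in testis (0 of 478, 31 at an unadjusted p under 0.05 against 7.23% of all exons, 0.132% of 17376 exons called), in epididymis (0 of 401, 17 unadjusted against 3.86%, 0.0% called), in vesicular gland (0 of 348, 15 unadjusted against 4.97%, 0.0241% called), in prostate gland (0 of 395, 16 unadjusted against 5.68%, 0.0702% called) or in bulbourethral gland (0 of 401, 12 unadjusted against 4.81%, 0.0345% called). With 3 libraries against 3, differences were measured coarsely. The median half-width of the unadjusted 95% interval was 5.77 points in bulbourethral gland and up to 9.36 points in epididymis. Differences under 10 points could not be called by the rule, whatever their spread. On simulated data of the testis breed comparison, 55.5% of planted differences of 20 points and 70.5% of those of 40 points were recovered. Larger breed differences can therefore also have been missed. A breed difference that itself differed between glands was called for 0 of 357 microexons (17 at an unadjusted p under 0.05 against 5.52% of all exons, 0.336% of 12802 exons called).

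MON2 and PSAP, chosen after their values were seen, had breeds that did not overlap in testis, as had 60 of the 478 microexons tested (12.6%) and 12.7% of all exons. MON2 was at 25.1 to 46.4% in BMI and 64.0 to 68.5% in DSE (29.16 ± 6.06 points higher in DSE, adjusted p = 0.332). In a fit of all libraries with a common spread its adjusted p was 0.00714, and 5 microexons of 357 were called in testis, as were 0.758% of all exons. The breeds overlapped for MON2 in the other glands, where differences were -2.07 to 8.18 points. PSAP was at 45.1 to 50.4% in BMI and 60.8 to 62.0% in DSE testis (13.10 ± 1.55 points, adjusted p = 0.135). In epididymis it was at 35.5 to 43.7% and 56.1 to 70.5% (22.09 ± 4.64 points, adjusted p = 0.851), and in the accessory glands differences were -1.48 to 8.34 points. Neither exon passed the threshold within a gland. The 18 nt exon of MON2 lies at chr5:27210880-27210897 on the plus strand.
MON2, 18 nt: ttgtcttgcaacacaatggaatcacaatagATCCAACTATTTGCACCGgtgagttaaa

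The library DSE testis 2 bore on testis results. Its germ cell markers were lowest, and its PSI of CLASP1 (27 nt, 31.2%) and CLIP1 (6 nt, 27.7%) was far below that of the other testis libraries. Without it, 64 microexons were called in testis against the other glands, 60 of them among the 61 above, and 12.0% of all exons. The breed comparison in testis then called 2 of 479 (0.201% of all exons), a 3 nt exon of the kinase MAP4K5 (-15.36 points in DSE against BMI) and a 23 nt exon of PPP1R36 (-14.99 points).

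Genes of splicing factors known to act on microexons were compared at the gene level, on log2(TPM + 1), between testis and the other glands. A gene was called at an adjusted p under 0.05 and a 2-fold change on that scale. Of 33 listed, 30 were tested and 16 were called, 13 higher and 3 lower, where 47.3% of 19796 genes were called, 34.6% higher and 12.7% lower. The median log2 difference was 0.76 for the listed genes and 0.31 over all genes.

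SRRM3, the paralogue of SRRM4 that shares its microexon-promoting domain, was at 10.7, 13.8 and 25.2 TPM in testis and at most 3.38 TPM elsewhere (log2 difference 2.83 ± 0.21). SRRM4 itself was at 0.341 to 1.33 TPM in testis and at most 0.815 TPM elsewhere, too low to be tested. KHDRBS3, a STAR family RNA-binding protein, was at 58.2, 189.6 and 213.8 TPM in testis and at most 21.1 TPM elsewhere (log2 difference 5.05 ± 0.33). The neuronal ELAV proteins ELAVL2, ELAVL3 and ELAVL4 were at 1.88 to 17.0 TPM in testis and at most 0.378 TPM elsewhere. MBNL3 (3.55 ± 0.37), QKI (2.58 ± 0.29) and PTBP2 (1.79 ± 0.21) were also higher on the log2 scale. QKI did not overlap, at 69.2 TPM or more in testis and at most 59.7 TPM elsewhere. PTBP2 overlapped, at 17.9 to 36.3 TPM in testis and up to 32.6 TPM in epididymis. MBNL3 was at 8.77 TPM at the lowest in testis and up to 9.37 TPM in vesicular gland. RBFOX1, also called higher, had a median of 4.08 TPM in testis and 4.36 TPM in epididymis. PTBP1, a repressor of many microexons, was at 62.7 to 103.2 TPM in testis and 84.5 to 169.8 TPM elsewhere (log2 difference -0.72 ± 0.12), under 2-fold.

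The 3 factors called lower were ESRP1, ESRP2 and MBNL2, of which the ESRP proteins are known from epithelial cells. ESRP1 was at most 0.0717 TPM in testis and at 8.63 to 66.3 TPM in the other glands (log2 difference -4.99 ± 0.21), and the log2 difference was -1.93 ± 0.21 for ESRP2 and -1.05 ± 0.25 for MBNL2. Epithelial markers moved with these genes. Neuron markers were summed at 31.0 to 87.1 TPM in testis against 2.34 to 60.5 TPM elsewhere, and of the 5 listed TUBB3 and UCHL1 made up most of the sum in testis, while STMN2 was at most 0.0828 TPM there and had medians of 0.231 to 1.29 TPM elsewhere. Whether the levels of these factors bear on the PSI of any microexon was not tested.

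**Figure D5:**
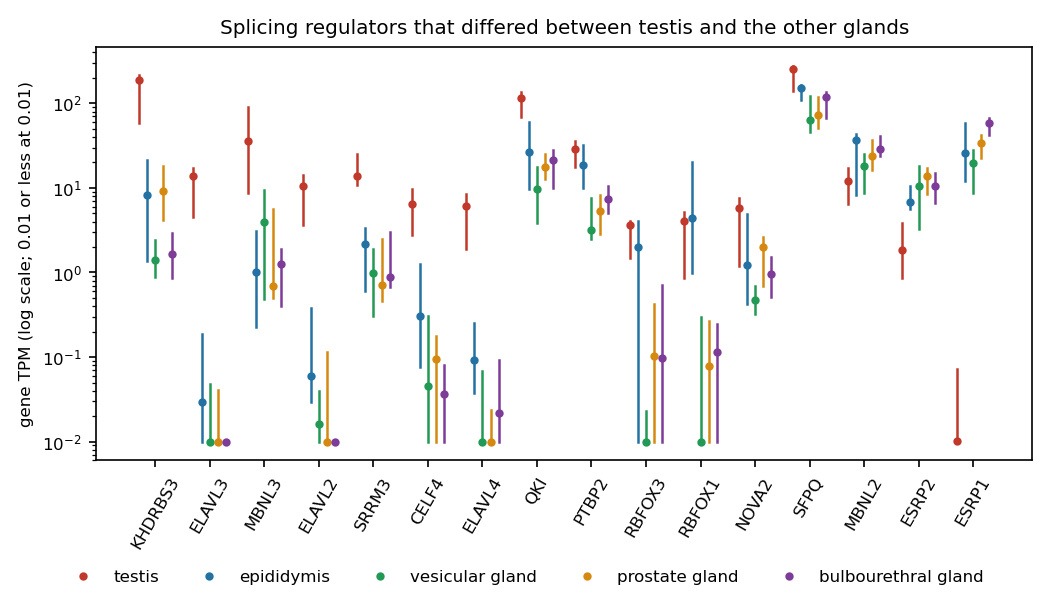
Gene-level TPM on a log axis (0.01 or less drawn at 0.01) for the 16 splicing factors called between testis and the other glands, with points at the median and lines from the lowest to the highest of 6 libraries in each of 5 glands by colour. KHDRBS3, SRRM3, MBNL3 and the ELAVL genes are higher in testis, and ESRP1 is at most 0.0717 TPM there and at 8.63 TPM or more elsewhere.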

How the data were processed

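RNA-seq TPM values per transcript were deposited by the authors, who trimmed reads with cutadapt, aligned them with STAR to Sscrofa11.1 and quantified the merged Ensembl 107 and Iso-seq annotation with Salmon. The submitters' processing notes name STAR 2.7.10a, Salmon 1.9.0, GSNAP 2018-07-04 and Bowtie 1.3.1. The labels name ribosomal RNA depletion and the study's methods poly-T beads. Full-length read counts per transcript were deposited by the authors from Iso-seq (IsoSeq3, Cupcake and SQANTI3). Salmon divides reads that several transcripts share, so PSI of an exon of a few bases rests on the few reads that cross it and on the other differences between its transcripts.

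Skipped exons were found in the annotation with the SUPPA2 definition. Where an exon had more than 1 pair of flanking sites (61 microexons), the pair with the highest mean summed TPM was used. Exons needed a summed TPM of at least 1 in every library of a comparison, and those at 0 or 100% in all were left out. PSI was tested with limma 3.58.1 (robust empirical Bayes, breed as a covariate between glands) in R 4.3.3, adjusted over all skipped exons by Benjamini-Hochberg. Genes were tested on log2(TPM + 1). Full-length reads were not tested. Intervals on shares are Wilson intervals at 95% and cover counting error only.

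The members, gene lists and named exons were chosen with earlier results of these data known. Named were at most 12 called exons in each direction for testis and 5 for other gland comparisons, 1 per gene with a symbol and by size of difference, up to 12 of the known genes by TPM, and the 3 with the highest TPM. The list of known genes was written from general knowledge. On simulated data, 90.5% of 200 planted differences of 20 points were recovered in the testis comparison and 55.5% in the testis breed comparison, over 12802 and 17376 exons. Exons of at least 5 TPM, no minimum, other scales, all flanking pairs, supported exons, single replicates and single libraries left out were tried as alternatives. Protein sequences were not used here. Deviations of same-numbered libraries from their group means correlated with both signs across glands and across breeds, so no fit reported here pairs them unless it says so.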

Additional observations from a re-analysis of the deposited data

Results flagged for a closer look

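In 28 of 204 groups of 6 libraries of a gland, the highest or lowest PSI of a named microexon lay far from the other 5 by Dixon's criterion (critical value 0.625), where chance alone gives about 1 in 20 for normally distributed values. In 8 of the 28 the other 5 libraries were all at 1 value, 0 or 100%, so that any other sixth value is singled out and this rate does not apply. Of the 28, 15 had a whole range under 10 points. DSE testis 2 accounts for 6 of them. It was the lowest testis library for CLASP1 27 nt at 31.25%, CLIP1 6 nt at 27.69%, SNX21 11 nt at 76.0%, DNM2 12 nt at 60.54% and AP2M1 6 nt at 88.23%, and the highest for SPTAN1 15 nt at 42.48%. Its germ cell markers were also lowest of the 6 testis libraries, and their part in these values was not tested. DSE testis 1 was lowest for OCRL 24 nt, at 10.13%.

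In epididymis, DSE epididymis 1 was highest for MON2 18 nt (83.89%) and EIF4G1 21 nt (3.305%) and lowest for SPTAN1 24 nt (99.21%), and BMI epididymis 3 was highest for FTL 24 nt (0.00529%). In vesicular gland, SUCO 21 nt was highest (71.72%) and DIAPH2 21 nt lowest (1.559%) in DSE vesicular gland 1, CADM1 12 nt was highest in DSE vesicular gland 3 (4.044%), PSAP 9 nt was lowest in BMI vesicular gland 1 (18.89%), and in BMI vesicular gland 3 LGALS8 27 nt was highest (33.66%) and SPTAN1 24 nt lowest (99.59%).

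In prostate gland, BMI prostate gland 3 was highest for CLASP1 27 nt (7.197%) and CTNND1 18 nt (8.616%) and lowest for SNX14 27 nt (6.006%), and BMI prostate gland 2, with vesicular gland RNA, was highest for DCTN2 6 nt (42.82%) and PTK2 21 nt (2.612%). In bulbourethral gland, BMI bulbourethral gland 3 was highest for SH3GLB1 24 nt (2.626%) and FTL 24 nt (0.005482%) and lowest for SPTAN1 24 nt (98.93%). DSE bulbourethral gland 2 was highest for CLASP1 27 nt (4.333%), and DSE bulbourethral gland 3, with muscle RNA, for AP1B1 9 nt (11.06%) and PTK2 21 nt (1.029%).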

How the results depend on the processing

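Each count of microexons called is followed by the share of all skipped exons that the same fit called. With at least 5 TPM, 24 of 150 tested microexons were called in testis (10.1%) and 9 in epididymis (2.74%), and at a difference of 20 points 37 (5.66%) and 4 (0.899%), with 1 between vesicular and bulbourethral gland (0.424%). With no minimum 87 of 550 were called in testis (12.1%). A log ratio with a pseudocount of 1 called 31 in epididymis (4.17%), 14 between vesicular and prostate gland (1.96%), 4 between prostate and bulbourethral gland (0.995%), 19 between vesicular and bulbourethral gland (3.96%) and 2 between breeds in testis (0.265%), and a pseudocount of 0.1 called 10 between vesicular and bulbourethral gland (1.6%). One fit of all libraries called 5 between breeds in testis (0.758%). Without DSE testis 2 there were 2 breed calls in testis (0.201%) and 4 differences of breed between glands (0.664%), without BMI prostate gland 2 there were 3 calls between vesicular and prostate gland (0.241%) and 1 between breeds in prostate gland (0.121%), and without the 3 libraries with muscle RNA 2 between vesicular and bulbourethral gland (0.484%). The share of multiples of 3 was 86.0% among supported exons. The cause of these changes was not tested, beyond the fewer exons or samples that an alternative leaves.

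Leaving out 1 replicate gave 57 to 62 calls in testis (10.6 to 11.7%), 12 to 16 in epididymis (1.71 to 1.9%), 0 to 2 between vesicular and prostate gland (0.0 to 0.22%), 0 to 0 between prostate and bulbourethral gland (0.00694 to 0.0609%) and 1 to 4 between vesicular and bulbourethral gland (0.383 to 0.602%). Between breeds it gave 0 to 2 in testis (0.0115 to 0.201%), 0 to 0 in epididymis (0.0 to 0.0628%) and in vesicular gland (0.00834 to 0.0813%), 0 to 1 in prostate gland (0.0483 to 0.121%) and in bulbourethral gland (0.0 to 0.0425%), and 0 to 4 for differences between glands (0.266 to 0.653%). Of the splicing factors 15 to 16 were called. Same-numbered libraries of a breed correlated across glands by -0.25 to 0.37, with all 10 values positive for DSE replicate 3, and 17 of 30 libraries correlated best with their own number, a hint of shared numbers from the data and not from the design. The labels do not tie numbers to animals and not every correlation was over 0.1, so whether the numbers pair the libraries is unknown and the block was kept as an alternative. With replicate number and breed as a block, calls were 61 in testis (11.8%) and 20 in epididymis (2.22%), 0 between vesicular and prostate gland (0.00771%) and 2 between vesicular and bulbourethral gland (0.301%), with adjusted p of 0.256 for PSAP in the former and 0.166 for MYO18A, 0.0713 for DNM2 and 0.129 for ENSSSCG00000031636 in the latter.

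Of 1014 values of named exons over all alternatives, 938 kept their direction and side of the threshold, 76 kept the direction but not the call, and 0 reversed. The direction could change only where libraries were left out or another flanking pair was used, since the other alternatives rest on the same PSI differences. The alternatives limited to supported exons and to exons between AG and GT or GC reuse the main fit. Their 51 values each could not change, so these totals overstate how far the calls were tried. TPM carries no depth, so the number of reads behind a PSI is unknown.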
